A study of Mus musculus with 2 samples.

Results

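The genes described here are the transcriptional coactivators YAP and TAZ, their DNA-binding partners of the TEAD family, 3 of their best known target genes and 2 angiomotins, as expressed in extraembryonic endoderm stem (XEN) cells. The 10 genes are Yap1, Wwtr1 (which encodes TAZ), Tead1, Tead2, Tead3, Ctgf, Cyr61, Ankrd1, Amotl1 and Amotl2. They were found by symbol in a table of 26127 genes, 1 row each, and all 10 had a mean of at least 1 RPKM (reads scaled to 1 kilobase of a gene and to 1000000 reads in the library), as did 10868 genes in all. They were chosen with the difference between the libraries already known, so every value of that difference is a description and none is a test.

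XEN cells are stem cell lines derived from the primitive endoderm of the mouse blastocyst. Both libraries are of total RNA from the line PS10, female and of ICR strain, transfected with Lipofectamine RNAiMax. In the control group (1 library) the cells received a control locked nucleic acid (LNA) oligonucleotide, and in the other (1 library), called the depleted library below, an LNA against Gata6-AS, an antisense noncoding RNA beside the endoderm factor gene Gata6. The sample titles call these reagents siRNA. The dose, the time after transfection and the number of cultures behind each library were not given in the sources used here. With 1 library per group nothing can be tested between conditions, and each difference below compares these 2 libraries only.

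YAP and TAZ carry signals on cell contact, shape and actin tension to the nucleus. The kinases of the Hippo pathway phosphorylate them and hold them in the cytoplasm, and angiomotins bind them at junctions and actin filaments. Once in the nucleus they bind TEAD proteins, which recognise DNA, and raise the transcription of genes such as Ctgf, Cyr61, Ankrd1 and Amotl2. In the blastocyst YAP and TEAD4 are known for setting the outer cells, the future trophectoderm, apart from the inner cells from which epiblast and primitive endoderm arise.

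The step between RPKM values corresponds to 1.04e+08 reads with the control LNA and 1.23e+08 reads with the Gata6-AS LNA. The targeted RNA, 1010001N08Rik in the table (a RefSeq synonym of the Gata6 antisense gene), was at 10.1 RPKM with the control LNA and 5.83 RPKM with the Gata6-AS LNA, and Gata6 at 81.9 and 55.7 RPKM. All 11 XEN and primitive endoderm markers had a mean of at least 1 RPKM, and their summed level was 4033 RPKM with the control LNA and 3076 RPKM with the Gata6-AS LNA. Sparc (2104 and 1689 RPKM) and Lama1 (1125 and 828 RPKM) made up most of that sum. Of the 11 markers, Foxa2 (102% of control), Hnf4a (130.2%) and Dab2 (140.5%) lay above control and all others lay below it. Those below were Sox7 (40.9%), Gata6 (68.0%), Gata4 (68.8%), Lama1 (73.6%), Sox17 (74.3%), Pdgfra (77.2%), Sparc (80.3%) and Cubn (86.5%). The part of marker levels in the differences below was not tested. Of the embryonic stem cell markers 1 of 8 reached that mean, Nanog at 4.61 and 5.07 RPKM, and none of 7 trophoblast markers did (summed levels of 1.10 and 1.78 RPKM, led by Cdx2 at 0.653 and 1.19 RPKM). None of 8 fibroblast markers did either, with summed levels of 0.00541 and 0.0150 RPKM and Col3a1, Thy1, Dcn, Lum and Twist2 at 0 in both. In bulk RNA, fewer cells of a type and less RNA per cell cannot be told apart.

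TEAD proteins bind DNA at a short core motif, so the promoter sequences of these genes are shown first. Windows from 250 bases before to 50 bases after annotated transcript starts, from RefSeq (build GRCm38.p6), were found for 8 of the 10 genes, 11 windows in all, with Cyr61 matched under its current symbol Ccn1. No window was found for Ctgf and Tead1. Each was searched on both strands for the TEAD core motif GGAATG, which reads CATTCC on the other strand. The core stood in 8 of 11 windows, belonging to 6 of the 8 genes, and in 14.7% of all 32851 windows. Since the genes include known TEAD targets, this count is a description and not a test. The 250 bases before the start are printed 5′ to 3′ for 3 genes higher with the Gata6-AS LNA, Ankrd1 (chr19:36119845-36120094, minus strand), Cyr61 (chr3:145649986-145650235, minus strand) and Amotl2 (chr9:102717554-102717803, plus strand), and for Amotl1 (chr9:14615001-14615250, minus strand), the paralog of Amotl2 that was not higher. The genes printed were chosen with their differences known. The core also stood in windows of Wwtr1, Yap1 and Tead3, which were at 74.4%, 95.7% and 105% of control. The windows of Amotl1 and Tead2, which were not higher either, held no core. Ctgf, which was higher, and Tead1, which was not, had no window to search. A link between the core and the differences was not tested. Capitals mark the core motif on either strand.
Ankrd1: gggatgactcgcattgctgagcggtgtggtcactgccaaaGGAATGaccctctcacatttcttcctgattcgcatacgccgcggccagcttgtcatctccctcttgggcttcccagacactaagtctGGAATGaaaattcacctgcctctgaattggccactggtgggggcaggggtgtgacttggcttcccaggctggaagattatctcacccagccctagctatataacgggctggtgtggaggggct
Cyr61: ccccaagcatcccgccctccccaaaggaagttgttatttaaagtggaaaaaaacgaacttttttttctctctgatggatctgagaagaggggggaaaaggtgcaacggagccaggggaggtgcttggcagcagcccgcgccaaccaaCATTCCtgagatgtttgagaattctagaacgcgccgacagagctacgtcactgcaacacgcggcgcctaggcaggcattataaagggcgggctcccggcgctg
Amotl2: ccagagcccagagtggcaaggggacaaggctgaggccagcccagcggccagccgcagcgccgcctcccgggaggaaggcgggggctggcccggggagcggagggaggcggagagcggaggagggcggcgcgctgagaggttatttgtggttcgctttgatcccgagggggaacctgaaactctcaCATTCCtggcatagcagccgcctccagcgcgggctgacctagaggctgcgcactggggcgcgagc
Amotl1: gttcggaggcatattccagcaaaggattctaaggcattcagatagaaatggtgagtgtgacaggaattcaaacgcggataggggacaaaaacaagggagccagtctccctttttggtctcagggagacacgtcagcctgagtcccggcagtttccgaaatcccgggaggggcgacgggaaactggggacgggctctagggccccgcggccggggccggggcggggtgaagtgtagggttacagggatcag

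Ankrd1 held 2 copies of the core in the forward direction, starting 210 and 123 bases before the transcript start. At least 2 copies were found in 2 of the 11 windows, that of Ankrd1 and 1 of Tead3, and in 1.36% of all windows. Cyr61 held a copy in the reverse direction 103 bases before its start, and Amotl2 a reverse copy 65 bases before its start. The Amotl1 window held no copy, which says only that these letters are not in this window. The span of Amotl1 in the expression table (101564 bp) is shorter than in RefSeq (121009 bp), so the start used for its window may not be the start of the transcript that was counted. The spans of Ankrd1 (7880 bp) and Cyr61 (3015 bp) were the same in both sources, while that of Amotl2 was 16747 bp in the table and 16328 bp in RefSeq.

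Among the genes for the factors themselves, the Yap1 window held 1 copy, 141 bases before the start, and both Wwtr1 windows, which overlap, held the same copy, 136 and 170 bases before their starts. Of the 3 Tead3 windows, 1 held 3 copies, 1 held 1 copy and 1 held none, and the Tead2 window held none. The CArG box, the motif of serum response factor, was in 0 of the 11 windows and in 1.63% of all windows.

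**Figure D1:**
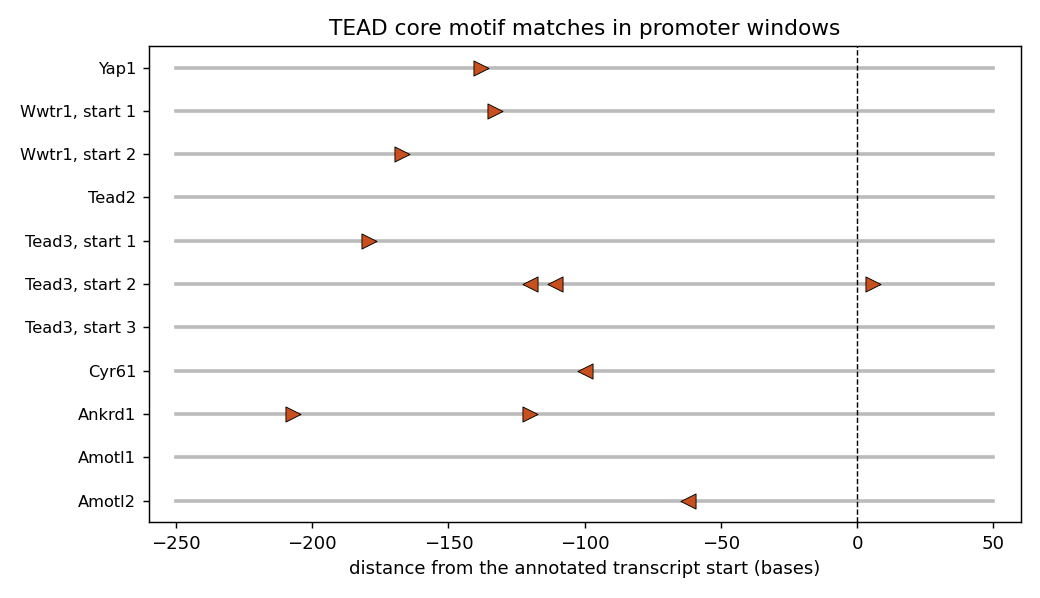
Positions of the TEAD core motif in the 11 promoter windows of 8 genes, as distance in bases from the annotated transcript start (dashed line); triangles pointing right are matches on the strand of the gene and triangles pointing left matches on the other strand. The windows of Ankrd1, Cyr61 and Amotl2 hold 2, 1 and 1 matches before the start, and those of Amotl1 and Tead2 hold none. The Yap1 window and both Wwtr1 windows hold 1 match each, and the 3 Tead3 windows hold 1, 3 and 0.

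The coactivators were expressed at moderate levels and neither was higher with the Gata6-AS LNA. Yap1 (chr9:7931999-8004596, minus strand, mm9 as in the other coordinates of the expression table) stood at 15.6 RPKM with the control LNA and 14.9 RPKM with the Gata6-AS LNA. The depleted level was 95.7% of control, and the exact (Clopper-Pearson) 95% interval ran from 93.6% to 97.8%, given at least 14920 and 16944 reads. Such intervals count PCR copies as independent molecules, so they cover counting error only and say nothing of the variation between cultures. Within the span of Yap1 the table has another gene on the opposite strand, RP23-349N15.1, at 7.16 and 6.60 RPKM, with 11167 bp shared. Whether counting used the strand was not given in the sources used here, so reads in that stretch cannot be assigned to either gene.

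TAZ was the more abundant coactivator transcript per length and had the most negative difference of the 10 genes. Wwtr1 (chr3:57259571-57379832, minus strand) stood at 22.9 RPKM with the control LNA and 17.0 RPKM with the Gata6-AS LNA, or 74.4% of control (72.5% to 76.5%, with at least 11320 and 10004 reads). Its difference on the log2(RPKM + 1) scale, depleted minus control, was -0.41, and 550 of the 10868 genes had a more negative one. The ratio of Wwtr1 to Yap1 RPKM was 1.47 with the control LNA and 1.14 with the Gata6-AS LNA. The summed RPKM of both coactivators was 38.4 with the control LNA and 31.9 with the Gata6-AS LNA, 83.0% of control.

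The TEAD transcripts were led by Tead1 in both libraries. Tead1 (chr7:119822832-120050321, plus strand) stood at 36.7 RPKM with the control LNA and 29.3 RPKM with the Gata6-AS LNA, or 79.7% of control (78.5% to 80.9%, with at least 35938 and 34013 reads). Tead2 (chr7:52471123-52489005, plus strand) stood at 26.7 and 25.9 RPKM, or 96.9% of control (93.7% to 100.2%). Tead3 (chr17:28468616-28487750, minus strand), the least abundant of the 10 genes, stood at 2.60 and 2.73 RPKM, or 105% of control (94.4% to 118%, with at least 591 and 739 reads). For Tead2 and Tead3 the counting interval from the least number of reads includes 100%, for Tead2 only narrowly. More reads than this least number would narrow it. The log2 difference of Tead2 was -0.04. It was -0.09 with the median of all genes set to 0 and -0.07 with each library scaled to the same summed RPKM. Tead1 and Tead2 share 741 bp and 4 bp with genes on the opposite strand, 2310014F06Rik and Cd37, listed at 0.249 RPKM or less in both libraries.

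Tead4, the family member known for trophectoderm, stood at 11.0 RPKM with the control LNA and 12.3 RPKM with the Gata6-AS LNA. Of the summed RPKM of the 4 TEAD genes, Tead1 made up 47.7% with the control LNA and 41.7% with the Gata6-AS LNA, Tead2 34.7% and 36.9%, Tead4 14.2% and 17.6%, and Tead3 3.37% and 3.89%. The summed RPKM of the family was 77.0 with the control LNA and 70.3 with the Gata6-AS LNA, 91.2% of control. The order Tead1, Tead2, Tead4, Tead3 was the same in both libraries.

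**Figure D2:**
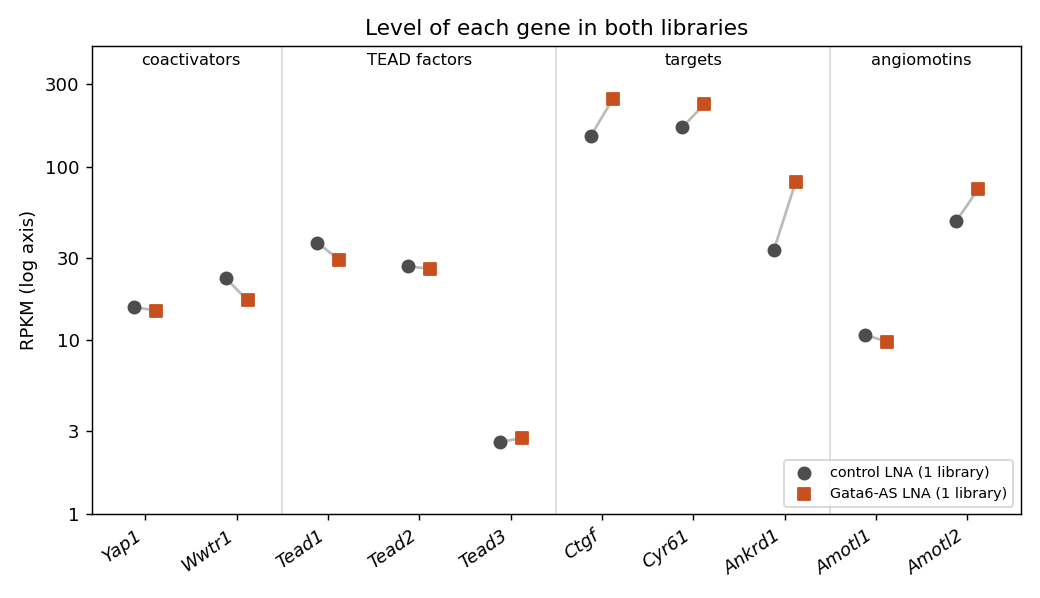
RPKM of each gene in the control LNA library (circles) and the Gata6-AS LNA library (squares), 1 library each, on a log axis, grouped by role. Ctgf, Cyr61, Ankrd1 and Amotl2 are higher with the Gata6-AS LNA, Wwtr1 and Tead1 are lower, and Yap1, Tead2, Tead3 and Amotl1 lie close together.

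The 3 target genes were all higher with the Gata6-AS LNA, and the coactivator genes were not. RNA levels do not show the phosphorylation or location of YAP and TAZ, so their activity was not measured. Ctgf (chr10:24315248-24318489, plus strand) encodes a secreted matricellular protein of the CCN family and is now named Ccn2. It stood at 152 RPKM with the control LNA and 248 RPKM with the Gata6-AS LNA, or 163% of control (161% to 165%, with at least 39238 and 75949 reads), a log2 difference of 0.70. The table lists Gm15270 on the opposite strand of Ctgf, sharing 1667 bp, at 19.6 RPKM with the control LNA and 34.5 RPKM with the Gata6-AS LNA. That is 175% of control, and the same limit on assigning shared reads applies.

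Cyr61 (chr3:145309935-145312949, minus strand) encodes another CCN protein, which binds integrins and heparan sulfate. It stood at 170.1 RPKM with the control LNA and 230.3 RPKM with the Gata6-AS LNA, or 135% of control (133% to 138%, with at least 17859 and 28705 reads), a log2 difference of 0.43. Cyr61 was the more abundant of these CCN genes with the control LNA and Ctgf with the Gata6-AS LNA, with a ratio of Ctgf to Cyr61 of 0.895 and 1.08. The other CCN genes Nov, Wisp1, Wisp2 and Wisp3 were below a mean of 1 RPKM, and Wisp1 was at 0 in both libraries.

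Ankrd1 (chr19:36186455-36194334, minus strand) encodes a muscle ankyrin repeat protein found in the nucleus and at the sarcomere. It stood at 33.0 RPKM with the control LNA and 82.1 RPKM with the Gata6-AS LNA. The depleted level was 248% of control (241% to 256%, with at least 6041 and 17808 reads), a log2 difference of 1.29. Only 10 of the 10868 genes had a more positive difference. Of 721 genes with a mean RPKM at or above that of Ankrd1, the glucose transporter gene Slc2a1 alone had a more positive difference (41.3 and 108 RPKM, log2 difference 1.37), a comparison chosen after its values were seen. No other row of the table overlaps Ankrd1, Cyr61, Wwtr1, Tead3, Amotl1 or Amotl2. The Ankrd1 relatives Ankrd2 and Ankrd23 stood at 0 and 0.0148 RPKM, and at 2.08 and 1.97 RPKM.

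Summed over the 3 targets, the level was 355 RPKM with the control LNA and 560.4 RPKM with the Gata6-AS LNA, 1.58 times the control. Ankrd1 made up 9.30% of that sum with the control LNA and 14.6% with the Gata6-AS LNA. The counting intervals of the 3 ratios to control did not overlap one another, so the targets differed among themselves by more than counting error. Likeness to Ankrd1 was measured as distance in log2(RPKM + 1) over these 2 libraries, and gene models with Rik, Gm, LOC or BC symbols were left out. The nearest of the remaining genes were Nudc (38.6 and 77.6 RPKM), Eif3b (37.0 and 64.1 RPKM) and Fdft1 (33.1 and 61.0 RPKM).

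Angiomotins bind YAP and TAZ, and Amotl2 is itself a known target of YAP. Amotl2 (chr9:102619002-102635748, plus strand) stood at 49.0 RPKM with the control LNA and 74.7 RPKM with the Gata6-AS LNA, or 152% of control (150.2% to 154%, with at least 31927 and 57724 reads), a log2 difference of 0.60. Its paralog Amotl1 (chr9:14346410-14447973, minus strand) stood at 10.8 and 9.85 RPKM, or 91.5% of control (89.2% to 93.9%, with at least 11068 and 12022 reads). The ratio of Amotl2 to Amotl1 was 4.55 with the control LNA and 7.58 with the Gata6-AS LNA. The third angiomotin gene, Amot, stood at 7.50 and 9.12 RPKM, or 122% of control (116% to 127%). Amotl2 made up 72.9% of the summed RPKM of the 3 angiomotin genes with the control LNA and 79.7% with the Gata6-AS LNA.

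**Figure D3:**
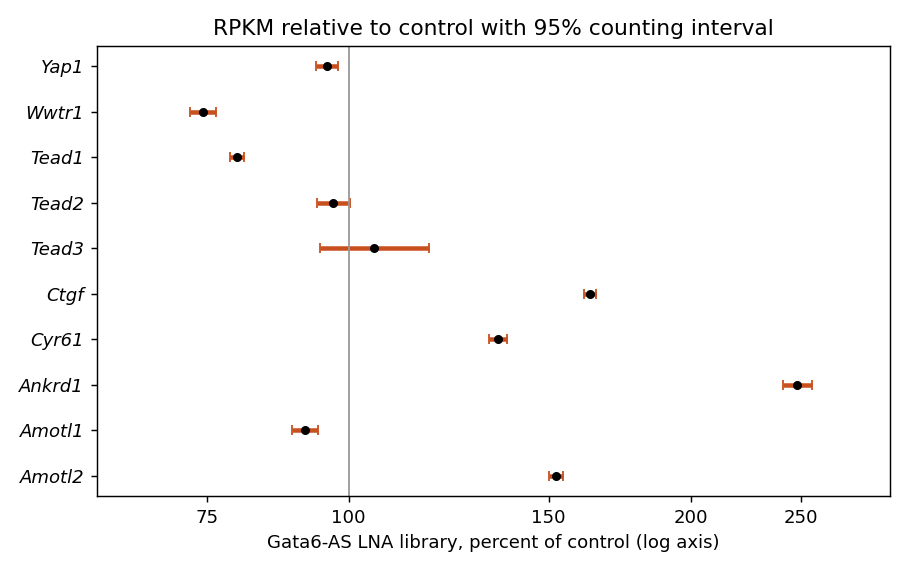
RPKM in the Gata6-AS LNA library as percent of the control LNA library for each gene (points, log axis), with the exact 95% interval of the ratio from the least number of reads (bars), which covers counting error only. Ankrd1 at 248%, Ctgf at 163%, Amotl2 at 152% and Cyr61 at 135% lie above 100%, Wwtr1 at 74.4% and Tead1 at 79.7% lie furthest below, and the intervals of Tead2 and Tead3 include 100%.

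In the control library the order of the 10 genes by RPKM was Cyr61, Ctgf, Amotl2, Tead1, Ankrd1, Tead2, Wwtr1, Yap1, Amotl1 and Tead3. In the depleted library it was Ctgf, Cyr61, Ankrd1, Amotl2, Tead1, Tead2, Wwtr1, Yap1, Amotl1 and Tead3. Ankrd1 thus stood below Amotl2 and Tead1 with the control LNA and above them with the Gata6-AS LNA. The exact Poisson 95% intervals of neighbours in these orders did not overlap in either library. With 1 library per group the spread between cultures is unknown, so the orders hold for these libraries only.

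By the size rule of a 2-fold difference on the log2(RPKM + 1) scale, 1 of the 10 genes, Ankrd1, was higher and none was lower. In the same comparison 0.331% of all genes compared passed this rule as higher and 0.451% as lower, 0.782% in either direction. At 1.5-fold, Ankrd1, Ctgf and Amotl2 were higher and none was lower, against 3.42% of all genes higher, 1.95% lower and 5.37% in either direction. Amotl2 lay just inside that limit and Cyr61 outside it. With the median difference of all genes set to 0, or with each library scaled to the same summed RPKM, the difference of Amotl2 was 0.55 or 0.58, below the 1.5-fold limit, which left 2 genes. Of the 10 genes 5 lay above 0 and 5 below, beside 58.0% of all genes compared above 0, and their median difference was 0.01, against 0.05 for all genes compared; it was -0.043 and -0.015 under these scalings. Because the genes were chosen with these values known, nothing is read from these counts.

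In the authors' deposited table of genes selected by p, 3 of the 10 genes were listed, all as higher. Of all genes that reached 1 RPKM on average, 11.9% were listed in that table and 6.23% were listed as higher. The log2 differences in the authors' deposited table were 1.32 for Ankrd1 (p = 2.12e-05), 0.72 for Ctgf (p = 0.0104) and 0.64 for Amotl2 (p = 0.0353). The test and any adjustment behind these p-values were not given in the sources used here. They come from the same 2 libraries.

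**Figure D4:**
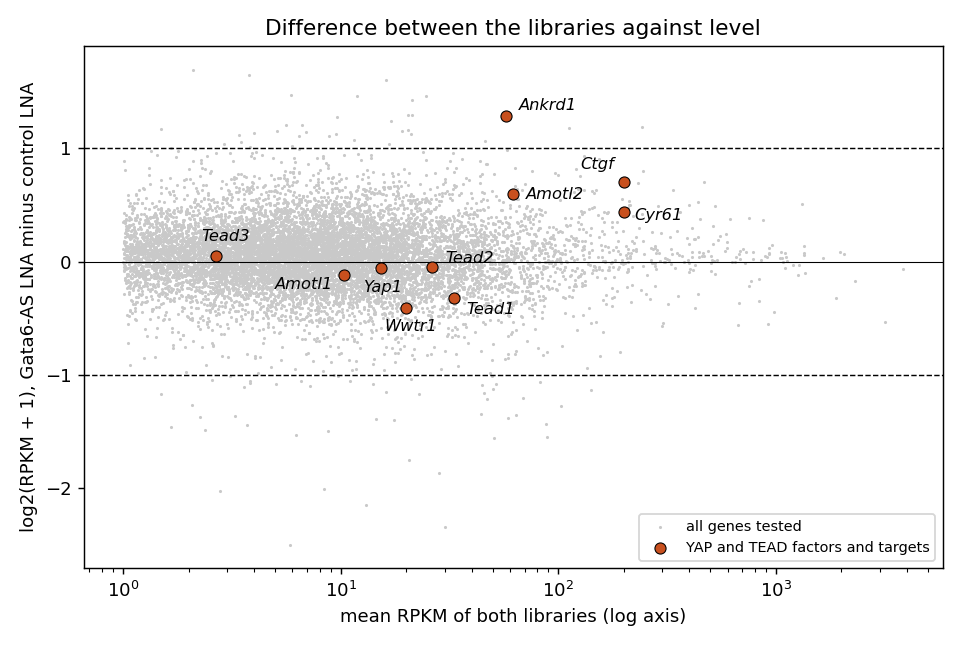
Difference of log2(RPKM + 1), Gata6-AS LNA minus control LNA, against the mean RPKM of both libraries (log axis) for 10868 genes (grey) and the 10 YAP and TEAD genes (coloured); dashed lines mark a 2-fold difference. Ankrd1 lies above the upper line at 1.29, Ctgf, Amotl2 and Cyr61 lie between 0.43 and 0.70, and Wwtr1 lies lowest at -0.41.

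The rest of the pathway was taken from 7 lists with 96 genes, of which 69 had a mean of at least 1 RPKM. None of the 69 was 2-fold different on the log2(RPKM + 1) scale. At 1.5-fold on that scale, 3 were higher (Wtip, Foxf2 and Tagln) and 1 was lower (Crim1), which is near the share in all genes compared. Their median difference was 0.02. The added 1 RPKM decides the call for Tagln at 2-fold and for Nuak2 and Taok2 at 1.5-fold, whose plain RPKM ratios were 205%, 180% and 151% of control. As background to the counts above and below 0 in each list, 58.0% of all genes compared (6305 of 10868) lay above 0.

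Other target genes of YAP and TAZ, taken from a published signature without the genes above, lay on both sides of 0. Of 18 listed, 12 had a mean of at least 1 RPKM, with 8 above 0, 4 below and a median of 0.09. Foxf2, a forkhead factor, stood at 4.28 RPKM with the control LNA and 7.19 RPKM with the Gata6-AS LNA (log2 difference 0.63). That difference was 0.58 with the median of all genes set to 0, below the 1.5-fold limit. With each library scaled to 1000000 summed RPKM it was 0.69, above that limit. Crim1, which encodes a membrane protein that binds growth factors of the BMP family, stood at 72.0 and 45.5 RPKM (-0.65). F3, the gene of coagulation tissue factor and the most abundant of the list, stood at 796 and 541 RPKM (-0.56). Ptpn14, whose product binds YAP, stood at 19.4 and 24.8 RPKM (0.34). The authors' deposited table lists F3 (-0.63, p = 0.0173) and Crim1 (-0.62, p = 0.0483) as lower, and Foxf2 (0.64, p = 0.0388) and Nuak2 (0.73, p = 0.0519) as higher.

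Genes of the Hippo kinases and their adaptors lay on both sides of 0. Of 17 listed, 16 had a mean of at least 1 RPKM, 7 above 0 and 9 below, with a median of -0.10 and none 1.5-fold different on the log2(RPKM + 1) scale. At a mean of at least 5 RPKM the median of the list was 0.01. The kinase genes had paralogs that differed in sign: Lats1 stood at 5.60 and 4.16 RPKM (74.3% of control) and Lats2 at 5.45 and 6.46 RPKM (119%). Lats2 is also a known target of YAP. Stk3 stood at 12.2 and 9.63 RPKM (79.1%) and Stk4 at 6.94 and 8.06 RPKM (116%). The authors' deposited table lists the LATS cofactor genes Mob1a (log2 difference -0.48, p = 0.0706) and Mob1b (-0.52, p = 0.0618) as lower, and the kinase gene Taok2 (0.55, p = 0.0471) as higher.

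Of 21 genes for membrane, junction and polarity inputs to the pathway, 14 had a mean of at least 1 RPKM, 10 above 0 and 4 below, with a median of 0.15. Wtip, which encodes a LIM protein of the Ajuba family that binds LATS kinases, was the member past 1.5-fold, at 12.1 RPKM with the control LNA and 19.6 RPKM with the Gata6-AS LNA (log2 difference 0.66). Of the 14 genes, Wtip alone is listed in the authors' deposited table, as higher (0.66 there too). Nf2, the gene of the tumour suppressor merlin, stood at 7.03 and 8.47 RPKM (121% of control). Genes for YAP binding and turnover, among them the 14-3-3 proteins that hold phosphorylated YAP, had 3 of 11 measured members above 0 and a median of -0.21, with none 1.5-fold different on the same scale. Of the 14-3-3 genes Ywhae stood at 143.6 and 195 RPKM and Ywhah at 41.7 and 33.0 RPKM.

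Of the Vestigial-like proteins, which compete with YAP for TEAD, Vgll4 was the member with a mean of at least 1 RPKM. It stood at 2.75 RPKM with the control LNA and 3.91 RPKM with the Gata6-AS LNA, or 142% of control (132% to 153%). Genes of the serum response and immediate early genes, a group to which Ctgf and Cyr61 also belong by their known response to serum, had 15 of 19 measured, 8 above 0 and 7 below, and a median of 0.00 that was -0.05 with the median of all genes set to 0. Tagln, an actin-binding protein gene and the member past 1.5-fold, stood at 7.85 and 16.1 RPKM (log2 difference 0.95). The other measured actin cytoskeleton genes of the list, Cnn2 (0.45), Myl9 (0.23), Acta2 (0.22) and Vcl (0.10), also lay above 0. Fos, Fosb and Ier3 did too, and the 7 below 0 were Srf, Mkl1, Mkl2, Jun, Junb, Egr1 and Ier2. This grouping was made after the values were seen and was not tested. Srf itself stood at 28.6 and 25.3 RPKM, Egr1 at 35.2 and 32.1 RPKM, and Fos at 25.7 and 30.01 RPKM. Fosb was at 141% and Junb at 74.8% of control. The authors' deposited table lists Tagln (log2 difference 0.96, p = 0.00451) and Cnn2 (0.48, p = 0.0732) as higher and Junb (-0.45, p = 0.0510) as lower.

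**Figure D5:**
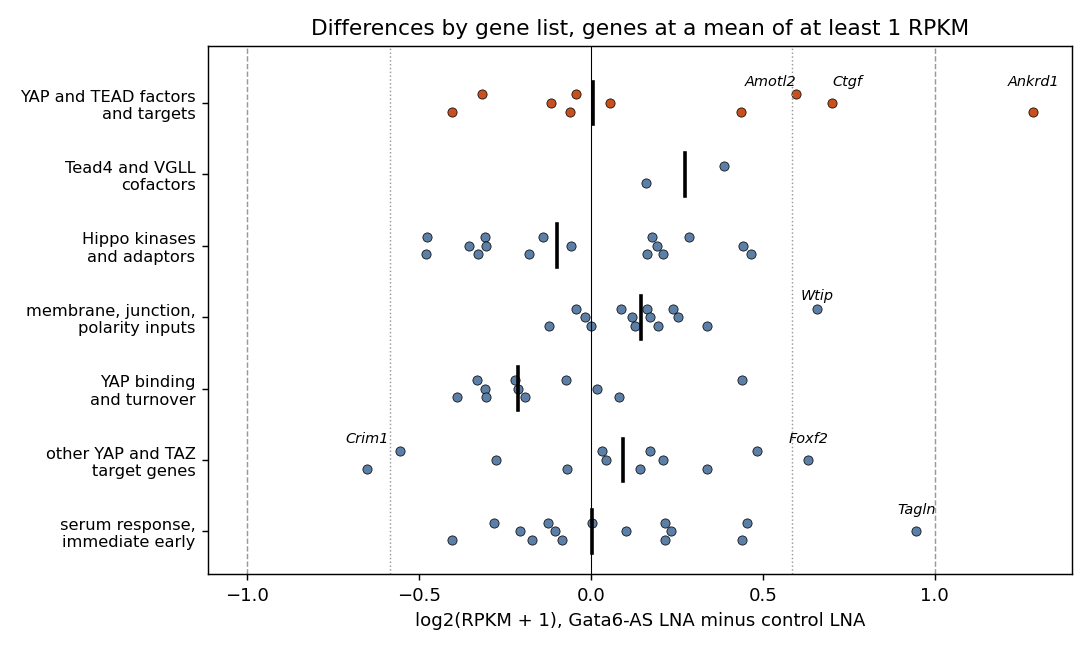
Difference of log2(RPKM + 1), Gata6-AS LNA minus control LNA, for each gene with a mean of at least 1 RPKM (points), with the median of each list (black bar); dotted and dashed lines mark 1.5-fold and 2-fold, and the list of family relatives, with 1 measured gene, is left out. Ankrd1 at 1.29 lies furthest from 0, and of the other lists Tagln, Wtip, Foxf2 and Crim1 lie outside the dotted lines.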

How the data were processed

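Total RNA of 2 samples, 1 library per group, was analysed from the authors' deposited tables. Deposited RPKM values, named so per the file headers, were used as deposited. TopHat and mm9 are named in the submitters' processing notes; the counting tool, annotation, aligner version and use of strand were not given in the sources used here. The authors' deposited second table holds log2 values, their difference and a p-value for 2099 genes (largest p-value 0.0750); these log2 values are not those of the RPKM table.

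The measure was the difference of log2(RPKM + 1), for genes averaging at least 1 RPKM over both libraries; 10 rows named as microRNA or snoRNA were left out. Depth was read from genes with a span under 3000 bp, in which RPKM times length is a whole number of equal steps (830 of 2094 genes with the control LNA and 886 of 2211 with the Gata6-AS LNA, within a relative tolerance of 3e-07 plus 0.002 reads). The least whole numbers of reads giving both RPKM values at one length up to 30000 bp (same relative tolerance, plus 0.0002 reads) gave exact 95% intervals. At 0, 3 reads allow up to 0.0290 RPKM over a kilobase with the control LNA and 0.0244 RPKM with the Gata6-AS LNA. The scripts were tested on simulated data (Python 3.11.15, SciPy 1.17.1, pandas 2.3.3).

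Of 98 list entries, 1 was matched through a RefSeq synonym (assembly GRCm38.p6, names only) and 1 was not matched. Members and lists were chosen with earlier results of these data known. Named were the 10 genes, list genes past 1.5-fold (at most 4 per list), Tead4, Vgll4, Amot, Lats1, Lats2, Stk3, Stk4, Nf2, Srf, Gata6, 1010001N08Rik and the 3 genes nearest to Ankrd1. Other list genes with values were chosen after these were seen. One list of pathway genes is not reported here.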

Additional observations from a re-analysis of the deposited data

How the results depend on the processing

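No paired analysis was possible because each group has 1 library. Each of the 10 genes kept its sign under a pseudocount of 0.1 or 0.5 RPKM, with the median of all genes set to 0 and with each library scaled to 1000000 summed RPKM; Ankrd1 ranged from 1.24 to 1.31 and Tead3 from 0.01 to 0.07. Ankrd1 alone was 2-fold higher, and none 2-fold lower, under these settings, without a filter and at a mean of at least 5 RPKM; the 1.5-fold rule gave 3 higher. Over all genes, 36 higher and 49 lower became 92 and 81 with a pseudocount of 0.1, 59 higher with 0.5, 66 and 76 with scaled sums, which shrinks the pseudocount relative to the values, and 372 and 212 at 1.5-fold. With the median set to 0, the median of the 10 genes was -0.043 and that of YAP binding and turnover -0.26. At a mean of at least 5 RPKM, which leaves fewer genes, the medians were -0.044 for the 10 genes, 0.011 for Hippo kinases and 0.16 for Tead4, which then stands alone; with Vgll4 the median was 0.27, and with all Vestigial-like genes and no filter 0.16. Scaling in the count of 1.5-fold genes was added after seeing the data. Depth limits Tead3 most, at 591 and 739 reads.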

Other observations

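Some pathway genes below a mean of 1 RPKM are listed in the authors' deposited table. Vgll3, a Vestigial-like TEAD cofactor gene, stood at 0.0291 RPKM with the control LNA and 0.137 RPKM with the Gata6-AS LNA, with at least 5 and 28 reads, and its log2 difference in the authors' deposited table was 2.07 (p = 0.00335). Its ratio to control was 472%, with an exact 95% counting interval of 180% to 1565%. Vgll1 stood at 0.0747 and 0.268 RPKM (at least 19 and 81 reads, 216% to 627% of control), with 1.71 in the authors' deposited table (p = 0.00814). Wwc1, which encodes the Hippo scaffold KIBRA, stood at 0.267 and 0.576 RPKM (at least 137 and 351 reads, 177% to 265% of control), with 0.98 in the authors' deposited table (p = 0.0201). Sfn, the 14-3-3 sigma gene, stood at 0.0479 and 0.0151 RPKM from at least 8 and 3 reads, and its counting interval, 5.40% to 132% of control, includes 100%. Each of these 4 genes differed by less than 1.5-fold on the log2(RPKM + 1) scale, where the added 1 shrinks differences of genes this low.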
